A study of Mus musculus with 16 samples.

Results

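Müller glia, the radial glia that span the retina, were described here through 10 genes: Glul, Slc1a3, Rlbp1, Aqp4, Kcnj10, Vim, Gfap, Apoe, Dkk3 and Crym. They were taken by symbol from the list of 25905 mouse genes measured in the series, and all 10 were found. The study profiled total RNA of retinas from the right eyes of C57BL/6 wild type mice, 10-week old, in 2 groups of 8, one kept on the ground as controls and one flown in space. The values below are the authors' mean normalized counts over all 16 libraries, flight and ground together. The count columns carry codes that match no sample label and were not used here, so no library, no group and no spread between mice is given, and flight was not compared with ground control. A mean normalized count is a read count corrected for the depth of each library and averaged; levels of single genes were set side by side per kb of transcript, while sums, shares of a sum, and counts of genes under 10 use the undivided value.

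Müller glia take up the glutamate released by neurons and turn it into glutamine, carry water and potassium between the retina and its vessels and vitreous, and return retinoid to cones for new pigment. When the retina is injured they react: they build intermediate filaments of vimentin and glial fibrillary acidic protein (GFAP), and this state is known as reactive gliosis. In rodents, GFAP is low in resting Müller glia and is normally found in the astrocytes of the nerve fibre layer.

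Of the members, 8 had 1 transcript in the count table and 2, Gfap and Rlbp1, had 2. Reads had been counted per transcript before genes were listed by symbol, and the bases that a gene's transcripts share could belong to either. The GFAP transcripts differ in how the protein ends, and the own coding end of the delta form is shown as an example, since reads within such bases belong to 1 transcript. NM_010277.3 encodes the common alpha form and NM_001131020.1 the delta form. Lower case marks the last 20 bases that both transcripts share, and capitals mark the coding bases, stop codon included, that the delta form alone holds. The sequence is from the GENCODE M21 transcripts (build GRCm38, minus strand). The own coding bases of the delta form lie in 1 exon, at chr11:102891396-102891520.
Gfap delta form: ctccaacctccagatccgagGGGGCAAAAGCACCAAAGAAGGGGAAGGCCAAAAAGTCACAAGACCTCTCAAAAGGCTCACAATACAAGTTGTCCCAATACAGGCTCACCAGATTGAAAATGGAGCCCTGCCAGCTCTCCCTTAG

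The 10 members spanned a wide range of levels. Glul had the highest level, at 6252 per kb, and Rlbp1 the lowest, at 0.650 per kb. Between them, in falling order per kb, stood Apoe, Dkk3, Slc1a3, Vim, Aqp4, Kcnj10, Crym and Gfap. Without division by length, Dkk3 stood above Apoe and Aqp4 above Vim, and Aqp4 was also above Vim per kb of coding length. The median member was at 408 per kb, against 29.7 per kb over the 15907 genes above 0 that had a transcript length. The members together held 0.493% of all normalized counts, and Glul alone held 50.6% of the members' share.

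**Figure D1:**
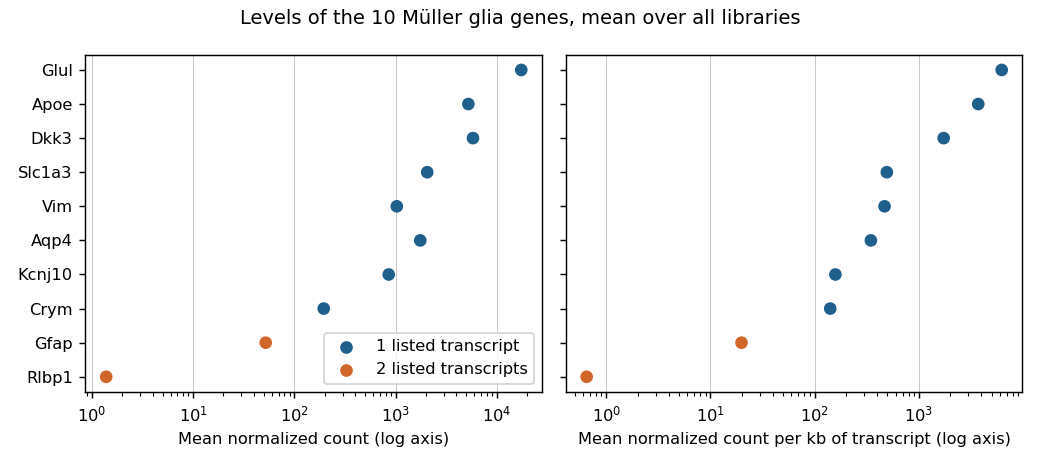
Levels of the 10 members on log axes, as the mean normalized count (left) and per kb of transcript (right); each point is the authors' mean over all 16 libraries, so there are no error bars. The 8 members with 1 listed transcript (blue) lie at 141 per kb or higher, and the 2 with 2 listed transcripts (orange), Gfap and Rlbp1, lie at 19.9 and 0.650 per kb.

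Glul encodes glutamine synthetase, the enzyme that turns glutamate and ammonia into glutamine. Its mean normalized count was 17455, or 6252 per kb, which was above 99.9% of the genes above 0 with a length. Slc1a3 encodes GLAST, the main glutamate transporter of Müller glia. It had a mean normalized count of 2056 and a level of 494 per kb. The level of Slc1a3 was 5.44 times that of Slc1a1 (EAAC1, a neuronal transporter) and 12.8 times that of Slc1a2 (GLT-1, found on cones and bipolar cells). Slc1a2 had 3 listed transcripts, and with the longest transcript of each gene the ratio of Slc1a3 to Slc1a2 was 26.6. Among the 7 other genes of glutamate uptake and recycling, the glutamine transporter Slc38a3 stood at 1683 per kb and glutamate dehydrogenase, Glud1, at 244 per kb. The lowest was Slc38a5 at 2.59 per kb. Glul was thus 3.71 times as high per kb as Slc38a3, the next of this list.

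Aqp4 and Kcnj10 encode the water channel AQP4 and the potassium channel Kir4.1, which sit together in the endfeet of Müller glia. Aqp4 had a mean normalized count of 1755 and a level of 347 per kb. Kcnj10 had a mean normalized count of 857 and a level of 159 per kb. Per kb, Aqp4 was 2.19 times as high as Kcnj10. Aqp1, the water channel of photoreceptors and some amacrine cells, stood at 258 per kb (ratio of Aqp4 to Aqp1 1.35, and 2.59 without division by length), while Aqp11 was lower, at 19.9 per kb. Kcnj10 was 6.56 times as high as Kcnj2 (Kir2.1) and 5.43 times as high as Kcnj13 (Kir7.1, a channel of the pigment epithelium), the latter ratio being 21.97 per kb of coding length. The dystrophin complex anchors both channels in the endfeet, and its genes were well measured: Dmd stood at 276 per kb and Dag1, dystroglycan, at 207 per kb. None of the 11 genes of the water and potassium list had a mean normalized count under 10, against 52.2% of all listed genes. The lowest was Trpv4, a cation channel, at 11.7 (3.64 per kb).

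Vim, the vimentin gene, and Gfap form the filaments of glia. Vim had a mean normalized count of 1030 and a level of 470 per kb. The ratio of Slc1a3 to Vim was 1.05 per kb and 2.00 without division by length. Gfap had a mean normalized count of 52.2 and a level of 19.9 per kb. The level of Vim was therefore 23.6 times that of Gfap. Gfap lay above 44.9% of genes per kb, near the middle of all genes. Of the other filament and linker genes, nestin, Nes, stood at 13.5 per kb, the lamin gene Lmna at 7.81 per kb and Synm, synemin, at 5.45 per kb. The lowest was Plec, plectin, at 0.366 per kb, and Plec had 15 listed transcripts.

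GFAP also marks retinal astrocytes, so its level was set beside the other astrocyte markers. S100b stood at 44.98 per kb, Aldh1l1 at 26.4 per kb, Pax2 at 0.790 per kb and Pdgfra at 0.184 per kb. Of these, Pdgfra had 2 listed transcripts and the others 1. Gfap thus lay below S100b and Aldh1l1 and above Pax2 and Pdgfra. The mean normalized counts of Pax2 and Pdgfra were under 10, at 3.44 and 1.23. In whole retina, fewer cells of a type and less RNA per cell cannot be told apart, and the part of astrocytes in the Gfap level was not tested.

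The 18 genes of reactive gliosis other than the filaments had a median mean normalized count of 7.85 (3.14 per kb). Of these, 10 were under 10 (55.6%), a share near that of all listed genes (52.2%). The highest was Il6st (gp130, the receptor subunit shared by interleukin-6 and ciliary neurotrophic factor), at 155 per kb. Serpina3n and Lcn2, secreted proteins that reactive glia make, followed at 48.8 and 43.2 per kb. Stat3, the transcription factor downstream of gp130, and Timp1, an inhibitor of metalloproteinases, were listed at 0; they had 3 and 2 listed transcripts. Of the 10 genes under 10, 5 had 2 or more listed transcripts. The median of the 13 genes with 1 listed transcript was 23.3, against 12.9 over all genes with 1.

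Apoe encodes apolipoprotein E, the lipid carrier that Müller glia secrete and that astrocytes, microglia and pigment epithelium also make. Its mean normalized count was 5242 and its level 3723 per kb, second among the members. Clu, clusterin, another secreted lipid carrier, stood at 2629 per kb (ratio of Apoe to Clu 1.42). The cholesterol exporter Abcg1 stood at 188 per kb and the receptor Lrp1 at 130 per kb. Vldlr, a receptor of apolipoprotein E, was the lowest of the list at 0.636 per kb and had 2 listed transcripts.

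Dkk3 encodes a secreted glycoprotein of the Dickkopf family, named for inhibitors of Wnt signalling. Its mean normalized count was 5825 and its level 1734 per kb, below Glul and Apoe and above the other members. It was the single member of its family with a high level. Dkk2 was next at 2.52 per kb (ratio 688), Dkkl1 stood at 2.08 per kb, Dkk1 at 0.110 per kb, and Dkk4 was listed at 0. All 5 had 1 listed transcript.

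Crym encodes mu-crystallin, which binds thyroid hormone in the cytoplasm. Its mean normalized count was 196 and its level 141 per kb, so Kcnj10 was 1.12 times as high; without division by length Kcnj10 was 4.38 times as high. It was the lowest of the 8 members with 1 listed transcript and still lay above 79.9% of genes per kb. The thyroid hormone receptor Thra was higher, at 423 per kb. Dio2, which makes active hormone, stood at 42.8 per kb, and Dio3, which inactivates the hormone, was the lowest at 8.30 per kb.

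Rlbp1 encodes the retinaldehyde binding protein CRALBP, a classical marker of Müller glia and pigment epithelium that carries retinoid for the visual cycle. In these data it had a mean normalized count of 1.39 and a level of 0.650 per kb, which was above 16.7% of genes. It was the lowest of its list of 8 retinoid genes. The others lay between 27.7 and 91.0 per kb: Rgr, an opsin of Müller glia and pigment epithelium, stood at 91.0 per kb, and the retinol dehydrogenases Rdh10 and Rdh5 at 84.1 and 80.8 per kb. Of 14 other identity genes of Müller glia, which did not include the members, 12 had a mean normalized count of 10 or more. Over all listed genes, 12374 of 25905 did. The 12 were led by Clu, by the carbonic anhydrase Car2 at 1596 per kb and by the transporter Abca8a at 432 per kb. The 2 under 10, Nfia and Nfib, are nuclear factor I genes with 3 listed transcripts each. They stood at 0.371 and 0.0102 per kb, both below Rlbp1. Nfix, a nuclear factor I gene of the same list, also had 3 listed transcripts and stood at 12.3 per kb, above Rlbp1.

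**Figure D2:**
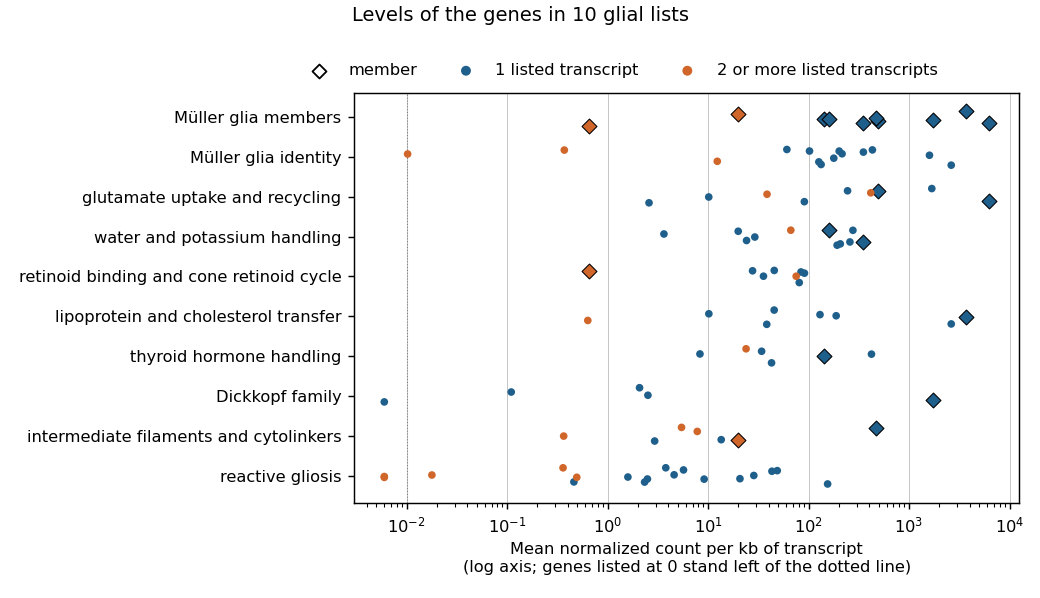
Levels per kb (log axis) of the genes of 10 glial lists, 1 point a gene, jittered vertically within its list; diamonds are the members, blue points have 1 listed transcript and orange points 2 or more. Rlbp1 (0.650 per kb) lies left of the other 7 retinoid genes. Points under 1 per kb are all orange in the identity and filament lists. In other lists some are blue: Ccl2 (0.462 per kb), Dkk1 (0.110 per kb) and Dkk4 (listed at 0).

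The 2 members with 2 listed transcripts differed in how much of their sequence belongs to 1 transcript. In Gfap, 2896 of the 5248 bases of both transcripts lay in 1 transcript only (55.2%), mainly the different last exons. In Rlbp1, this was so for 172 of 4276 bases (4.02%), in runs of at most 89 and 82 bases, none of them coding. Reads had 75 bases, and a read lay wholly within such bases at 2679 of 5100 positions in Gfap (52.5%) and at 23 of 4128 positions in Rlbp1 (0.557%). Divided by own bases, Gfap stood at 18.04 per kb and Rlbp1 at 8.07 per kb. Own bases were summed over both transcripts, whereas transcript length was their mean, so a gene's own 2 values do not compare directly. Gfap was 30.6 times as high as Rlbp1 per kb of transcript and 2.23 times as high per kb of own bases. Per 1000 own read positions the order turned, with Rlbp1 at 60.4 and Gfap at 19.5, and the Rlbp1 value rests on 23 positions.

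**Figure D3:**
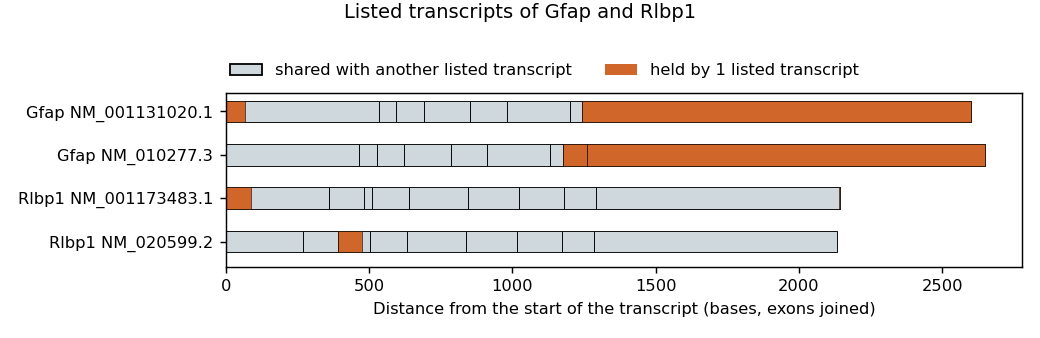
The listed transcripts of Gfap and Rlbp1, drawn to scale in bases from the start of each transcript with exons joined (thin lines mark exon borders); grey bases are in both transcripts and orange bases in 1. Own bases make up 55.2% of the Gfap transcripts and 4.02% of the Rlbp1 transcripts.

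Over all genes, levels were lower where 2 or more transcripts were listed than where 1 was. The 22086 genes with 1 listed transcript had a median mean normalized count of 12.9, and 51.7% of them reached 10. The 2704 genes with 2 had a median of 0.652, and 24.96% reached 10. Beyond 2 there was no steady fall. The median was 1.58 with 3 and 0.736 with 4 or more, and 25.3% and 21.4% reached 10. Among 1774 genes with 2 listed transcripts and models for both, the median was 0.0624 where no read position was own (198 genes) and 0.412 where 1 to 99 were (282 genes), the class of Rlbp1. It was 2.04 with 100 to 999 own positions (664 genes) and 18.1 with 1000 or more (630 genes), the class of Gfap. Rlbp1 and Gfap were thus both above the median of their own class. In the glial lists, 11 of the 58 other genes with 1 listed transcript were under 10 (18.97%), against 9 of 17 with 2 or more (52.9%); over all genes these shares were 48.3% and 75.4%. The relation was loose. Trpm1, a channel of bipolar cells with 2 listed transcripts and 4693 own read positions, stood at 663 per kb. Vldlr, also with 2 and with 4568 own read positions, stood at 0.636 per kb. Stat3, with 1700 own read positions, was listed at 0 (all named here after their values were seen). How the authors counted a read in shared bases, and how they went from transcripts to 1 value a gene, is not given in the sources used here, and the part of this step in the Rlbp1 and Gfap levels was not tested.

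**Figure D4:**
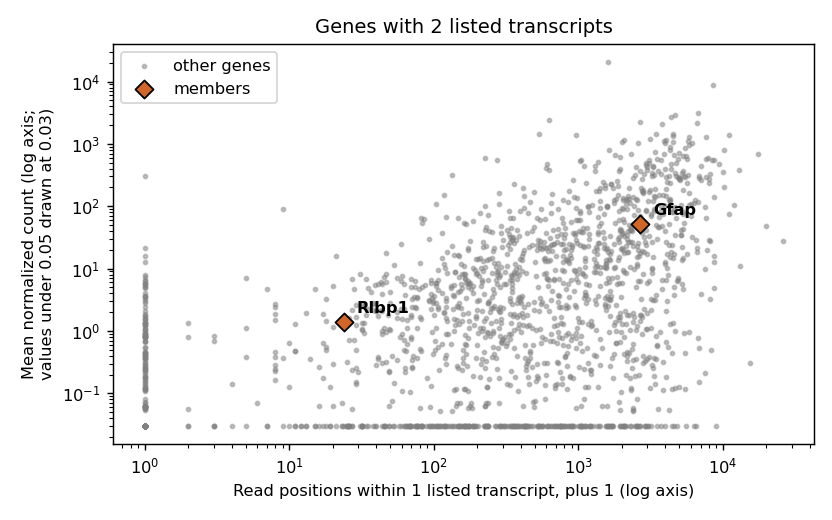
Mean normalized count (log axis) against the number of read positions that lie in 1 listed transcript, plus 1 (log axis), for 1774 genes with 2 listed transcripts; each point is a gene, and genes under 0.05 are drawn at 0.03. Rlbp1 has 23 such positions and a mean normalized count of 1.39, and Gfap has 2679 and 52.2; levels spread widely at every number of positions.

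The markers of other retinal cells showed what tissue the members were measured in. The 6 rod genes lay between 36.1 and 66356 per kb. The highest, Gnat1, rod transducin, stood above each of the members. Pde6b (4778 per kb), Cnga1 (3161 per kb) and Nrl (36.1 per kb, 2 listed transcripts) lay below Glul. The 5 cone genes lay between 90.3 and 1162 per kb and the 4 bipolar genes between 223 and 698 per kb. Markers of pigment epithelium, lens and microglia were also present. The 5 genes of the pigment epithelium had a summed mean normalized count of 961, the 4 lens genes 1206 and the 6 microglia genes 204. The sum for the 10 members was 34470. These sums are undivided and cover lists of unlike size, so they do not compare amounts of cells. Single genes led some of them: Cryaa held 898 of the lens sum and Glul 17455 of the members' sum. Apoe and Rlbp1 are made by pigment epithelium as well, and the part of such cells in their levels was not tested.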

How the data were processed

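Per the labels, stranded RNA-seq libraries were made from 100 ng of total RNA. The authors' processing notes name Trimmomatic, TopHat2, HTSeq and DESeq2 1.22.2 (R 3.5.1). The authors deposited a table whose mean normalized count, a signal averaged over the 16 libraries, was used here. Its other columns hold the authors' own comparison of flight with ground control (fold changes, errors, p-values) and were not used. The 32 count columns of the 2 deposited count tables match no sample label and were not used; only transcript names were read, so total counts per library are not given. Depth per library is therefore unknown here, and no interval or test is given.

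Levels were divided by the mean length of a gene's listed transcripts, matched by accession to GENCODE M21 (GRCm38): 24385 of 31616 transcripts (77.1%) matched. The build used by the authors differs, so no other coordinates are given. Of the genes, 25 symbols had no transcript row. Own bases are those of 1 listed transcript of a gene; own read positions are starts of reads of 75 bases wholly within them. The counting of own bases and read positions, and the percentile, were checked on small made-up inputs with known answers (Python 3.11.15, pandas 2.3.3, numpy 2.4.6). All 10 members were named. Of each other list, at most the 3 highest genes per kb and the lowest were named. Genes beside these (close relatives of members, markers, Nfia, Nfix, Ccl2) were chosen after their values were seen. The members and lists were chosen with earlier results of these data known. Other lengths, scales and reference genes were tried. Some items of these lists are not reported here.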

Additional observations from a re-analysis of the deposited data

How the results depend on the processing

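The median member level was 408 per kb; with the longest transcript of each gene it was 350, with coding length 1008, and with no division by length 1392. The median member's percentile among genes above 0, by mean normalized count without division by length, was 94.9; among genes at 10 or more it was 91.9, and among genes with 1 listed transcript, a choice made after seeing the data, 94.3. Of 27 comparisons of neighbouring members under the 3 other scales, 24 kept their order and 3 turned. Apoe over Dkk3 was 1.10 on the log2 scale and -0.15 without division by length. Vim over Aqp4 was 0.44, and -1.30 with coding length and -0.77 without division by length. Glul over Apoe was 1.68-fold per kb and 3.33-fold without division by length. Gfap over Rlbp1 was 4.94 on the log2 scale, 1.16 per kb of own bases and -1.63 per own read position. These 2 divisions, and the other scales for ratios to genes outside the members, were also chosen after seeing the data. The order of the pairs that turned rests on the length used. No paired analysis was possible because no count column could be matched to a sample; for the same reason the planned edgeR test of flight against ground control and its alternatives (DESeq2, the filter, leaving out replicates, the threshold) were not run.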

Other observations

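Low levels of genes with several listed transcripts were also seen in markers of other retinal cells, all named after their values were seen. Nrl, the transcription factor that sets rod identity, stood at 36.1 per kb with 2 listed transcripts and 8 own read positions, whereas the 5 other rod genes, with 1 listed transcript each, lay between 3161 and 66356 per kb. Pecam1, an endothelial adhesion molecule, stood at 0.137 per kb with 2 listed transcripts and 0 own read positions, whereas Kdr, the VEGF receptor of the same cells, stood at 229 per kb with 1, and Cldn5 and Cdh5, with 1 each, at 36.1 and 24.9 per kb. Rbpms, a marker of ganglion cells, stood at 2.74 per kb with 3 listed transcripts, against 104 to 887 per kb for the 3 other ganglion cell genes, Pou4f1, Sncg and Nefl, with 1 each. Trpm1, the channel of ON bipolar cells, was not low with 2 listed transcripts, at 663 per kb. It had 4693 own read positions, in the class of 1000 or more, which had the highest median. Low markers with 1 listed transcript were also seen: Pax2, of astrocytes, stood at 0.790 per kb and Best1, of pigment epithelium, at 1.31 per kb.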
